A study of Bos grunniens with 12 samples.

Results

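Axon guidance genes were followed in the testes of yaks of 2 ages. The 91 members were the 89 rows of the deposited gene table that carry the KEGG pathway Axon guidance, less 2 BMP or SMAD rows, plus 4 rows with the symbol ROBO1 or ROBO2 (2 each). The table holds 20953 rows, and 62 members passed a mean FPKM of 0.5 over the 6 input libraries, as did 12437 rows in all. The pathway was chosen by its change between the ages in these same libraries, so the directions and counts below describe the members and are not independent evidence for the pathway.

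The Y group held testes of 3 yaks of 1.5 years, before sexual maturity, and the M group testes of 3 yaks of 5 years, after it. Each testis gave an input library (fragmented poly(A) RNA) and an IP library (the fragments bound by an antibody against N6-methyladenosine, m6A), 12 libraries in all. All animals were healthy yaks from 1 location, with no treatment named. The Y testes came from castration and the M testes from euthanized animals, so age and the way of collection cannot be told apart. Ages were taken from the sample titles, whereas the record's stage field puts each sample at the opposite stage. The record's growth protocol also swaps the letters, with M for the younger yaks. The 6 elongating spermatid markers in the table, which mark germ cells late in sperm formation, summed to 1360 to 1433 FPKM in the Y libraries and to 314, 994 and 875 in M replicates 1, 2 and 3. Late germ cell transcripts were thus more abundant in the libraries titled as 1.5 years, and every direction below rests on the titles. If the ages in the titles were exchanged, each direction below would turn around, and the files alone do not settle this.

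Axon guidance genes encode secreted or membrane-bound cues, the receptors that read them on a growing axon, and the GTPases, kinases and adaptors that pass the signal to the cytoskeleton. Netrins, slits, semaphorins and ephrins are the classical cue families, and DCC and UNC5 proteins, ROBO proteins, plexins and Eph receptors are their receptors. The same proteins also act outside the nervous system, in cell migration, vessel growth and adhesion between epithelial cells.

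More axon guidance genes were higher in the M group than lower. Of the 62 tested members, 14 were higher and 2 were lower at an unadjusted p under 0.05 and a fold change over 2, beside 4.01% of all tested genes higher and 5.25% lower. No member had an adjusted p under 0.05 (limma with Benjamini-Hochberg adjustment over all genes tested). The adjusted p of the 16 called members lay between 0.154 and 0.167, and 27 members had an unadjusted p under 0.05 (43.5%, beside 25.1% of all tested genes). Among all tested genes, 4 had an adjusted p under 0.05. The median log2 fold change, M over Y, was 0.46 over the tested members and 0.04 over all tested genes. All 3 M libraries lay above all 3 Y libraries for 26 members (41.9%, beside 19.8% of all tested genes), below them for 4 members (6.45%, beside 13.9%), and the groups overlapped for 32. Since the pathway was taken up for this contrast, nothing is read from these shares. FPKM counts fragments relative to transcript length and to the library's mapped fragments, and log2 fold changes are on the log2(FPKM + 0.1) scale, which understates the change of low genes.

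**Figure D1:**
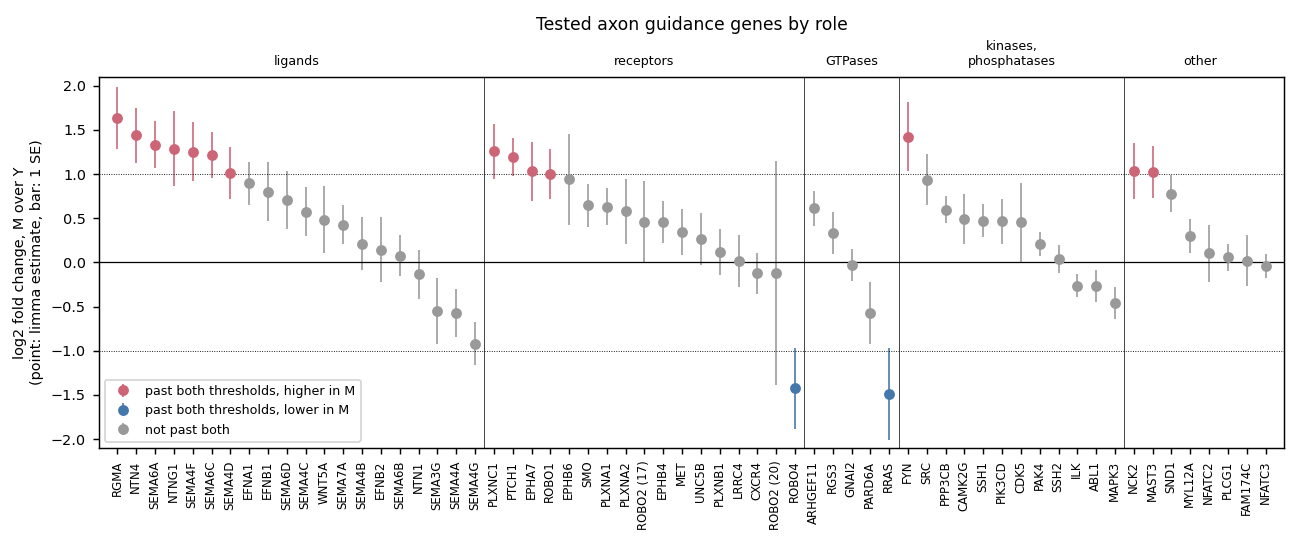
Log2 fold change, M over Y, of the 62 tested axon guidance genes, ordered by role and then by size (points: limma estimates on log2(FPKM + 0.1), bars: 1 SE, dotted lines: a fold change of 2; for ROBO2, the last digits of the identifier). The 14 genes higher in M and past both thresholds stand mostly among the ligands (7) and receptors (4), and ROBO4 and RRAS are the 2 lower ones.

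Ligands held the largest group of higher members, with 7 of 20 tested and none lower. RGMA, a membrane-anchored repulsive cue that binds neogenin, measured 1.42, 1.38 and 0.795 FPKM in the Y libraries and 5.34, 2.39 and 4.34 in the M libraries. Its log2 fold change was 1.63 (SE 0.35), the largest among the members, and the groups did not overlap. NTN4, a secreted netrin of basement membranes, measured 1.90, 1.46 and 1.58 FPKM in Y and 7.12, 2.95 and 4.64 in M. The lowest M library thus stood above the highest Y library, and the log2 fold change was 1.44 (SE 0.31). NTNG1, a membrane-anchored netrin, was lower in level, with 0.495, 0.763 and 0.245 FPKM in Y and 1.92, 1.14 and 0.935 in M, a log2 fold change of 1.29 (SE 0.43).

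Of the 12 tested semaphorins, 4 were higher past both thresholds and none was lower, with log2 fold changes from -0.92 to 1.33. Class 6 semaphorins, transmembrane ligands of the class A plexins, had 2 of 4 members called. SEMA6A measured 1.42, 0.948 and 1.10 FPKM in Y and 4.23, 2.40 and 2.72 in M (log2 fold change 1.33, SE 0.27). SEMA6C measured 2.27, 2.35 and 1.95 FPKM in Y and 7.79, 3.92 and 4.60 in M (1.22, SE 0.26). For both genes each M library was above each Y library, and M replicate 1 was the highest. Class 4 semaphorins, also transmembrane, had 2 of 6 members called. SEMA4D, a ligand of plexin B1 that is also known from T cells, measured 1.00, 0.888 and 0.950 FPKM in Y and 2.90, 1.32 and 2.11 in M (1.01, SE 0.29). SEMA4F measured 0.646, 0.585 and 0.754 FPKM in Y and 2.65, 1.09 and 1.69 in M (1.25, SE 0.33). Neither gene overlapped between the groups. SEMA4G, named after its values were seen, went the other way without passing the fold threshold. It measured 5.93, 6.16 and 6.61 FPKM in Y and 2.33, 4.60 and 3.18 in M, a log2 fold change of -0.92 (SE 0.24). The 3 tested ephrins, membrane-bound cues read by Eph receptors, had log2 fold changes from 0.14 to 0.90 and none was called.

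Among receptors, 4 of 17 tested members were higher and 1 was lower. ROBO1, a receptor for slit proteins, measured 2.75, 2.60 and 2.44 FPKM in Y (2.60 ± 0.155, SD, n = 3) and 7.74, 3.44 and 5.55 in M (5.58 ± 2.15, SD, n = 3). Its log2 fold change was 1.00 (SE 0.28, limma adjusted p = 0.154), just past the fold threshold, and the M libraries spread far more than the Y libraries. These values belong to the row ENSBGRG00000000014 on chromosome 1, 9567210 to 10778605, in LU_Bosgru_v3.0, and the second ROBO1 row was listed at 0 in every library. The 2 ROBO2 rows, for a second slit receptor, overlapped between the groups. The row ENSBGRG00000000017 measured 0.354, 0.831 and 0.271 FPKM in Y and 0.921, 0.420 and 0.669 in M, a log2 fold change of 0.46 (SE 0.46). The row ENSBGRG00000000020 was listed at 0 in Y replicate 2 and in M replicate 1, with 1.57 and 0.569 FPKM in the other Y libraries and 1.22 and 0.555 in the other M libraries (log2 fold change -0.12, SE 1.27). ROBO1 and ROBO2 rows carry no pathway annotation in the table and entered by symbol.

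The other called receptors belong to different cue families. PLXNC1, a plexin that binds SEMA7A, measured 3.10, 2.48 and 2.30 FPKM in Y and 9.68, 4.004 and 6.61 in M (log2 fold change 1.26, SE 0.31). PTCH1, the receptor of Hedgehog ligands, measured 1.94, 2.38 and 2.02 FPKM in Y and 6.17, 3.75 and 5.16 in M (1.19, SE 0.21). EPHA7, a receptor tyrosine kinase for ephrins, measured 0.557, 0.694 and 0.643 FPKM in Y and 1.97, 0.848 and 1.58 in M (1.03, SE 0.33). All 3 were above the Y range in each M library, EPHA7 with the narrowest gap. ROBO4, the ROBO family member known from endothelium, was lower, with 1.63, 1.77 and 1.24 FPKM in Y and 0.195, 0.840 and 0.703 in M (-1.43, SE 0.46). On these rows ROBO1 and ROBO4 differed in opposite directions, and another ROBO4 row, ENSBGRG00000021903, given with the other repeated symbols, was not lower. The endothelial markers summed to 10.3 to 16.4 FPKM in Y and to 15.7 to 22.8 in M, with 1 of 6 tested markers higher and none lower, and their part in the ROBO4 value was not tested.

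Among the members that are neither ligands nor receptors, 3 were higher and 1 was lower. FYN, a Src family kinase that acts below several guidance receptors, measured 1.60, 0.794 and 1.15 FPKM in Y and 4.54, 1.80 and 4.07 in M (log2 fold change 1.42, SE 0.39). It was the 1 called gene of 12 tested kinases and phosphatases, whose log2 fold changes ran from -0.46 to 1.42. RRAS, a small GTPase inactivated by plexins, was the 1 called gene of 5 tested GTPases and regulators. It measured 1.14, 1.49 and 0.608 FPKM in Y and 0.272, 0.131 and 0.636 in M (-1.49, SE 0.52), and the highest M library reached into the Y range. NCK2, an adaptor that links receptors to actin, measured 1.01, 0.758 and 0.736 FPKM in Y and 2.73, 1.22 and 1.73 in M (1.04, SE 0.32). MAST3, a serine/threonine kinase that the list of pathway kinases did not hold, measured 2.53, 2.32 and 1.59 FPKM in Y and 6.14, 3.01 and 4.60 in M (1.03, SE 0.30). Both were higher in each M library than in any Y library.

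**Figure D2:**
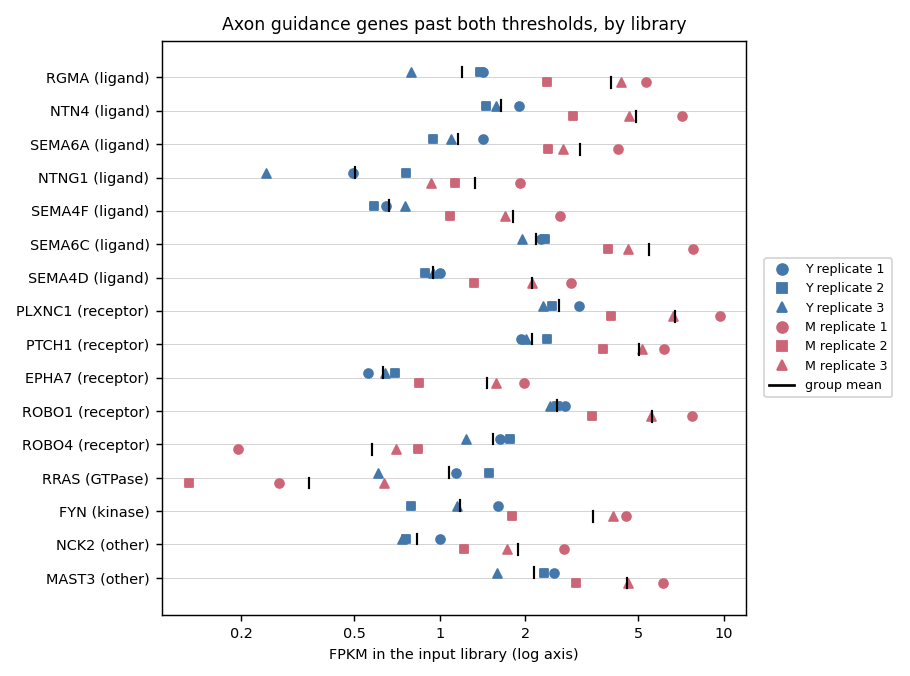
FPKM (log axis) of the 16 axon guidance genes past both thresholds in each input library (blue: Y group, red: M group; symbols: replicates 1, 2 and 3; black ticks: group means, n = 3). In all 14 higher genes the M libraries lie above the Y libraries, with M replicate 1 the highest, and RRAS is the gene whose groups overlap.

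The members with the highest levels were downstream genes and none of them was called. MAPK3, the ERK1 kinase, had the highest mean at 47.9 FPKM, with 60.0, 49.1 and 57.0 FPKM in Y and 33.4, 45.6 and 42.2 in M. All M libraries were below all Y libraries, at a log2 fold change of -0.46 (SE 0.18, limma adjusted p = 0.177). ILK, a kinase of integrin adhesions with a mean of 15.8 FPKM, also lay below the Y range in each M library, with a log2 fold change of -0.26 (SE 0.13). GNAI2, an inhibitory G protein subunit (mean 22.2 FPKM), MYL12A, a myosin light chain (mean 20.7 FPKM), and NFATC3, a calcineurin-regulated transcription factor (mean 15.7 FPKM), overlapped between the groups, at log2 fold changes of -0.03, 0.30 and -0.04. By level, 9 of the 21 members with a mean from 2 to 10 FPKM were higher (3.16% of all tested genes at this level), as were 5 of the 33 members from 0.5 to 2 FPKM (7.92%) and 0 of the 8 members over 10 FPKM (1.28%).

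The 29 members under the filter had no library above 0.885 FPKM. SEMA6D, just above the filter with a mean of 0.529 FPKM, had a log2 fold change of 0.71 (SE 0.33). A second SEMA6D row without the annotation, ENSBGRG00000018720 with a mean of 3.64 FPKM, went the other way at -0.83 (SE 0.26), with all M libraries below all Y libraries. EPHA1, just below the filter with a mean of 0.455 FPKM, overlapped between the groups. Among the untested members, 4 were listed at 0 in all libraries: PANX1, CREM, the second ROBO1 row and the ROBO4 row ENSBGRG00000022285. All M libraries were above all Y libraries for 5 untested members (LRRC4C, EPHA8, PARD6G, PPP2R3A and NTN3) and below them for EFNA3. These untested genes were named after their values were seen. The share of all untested rows without overlap was not computed, so nothing is read from these counts. The Hedgehog ligand SHH was at 0.0843 FPKM or less in each library. DHH, a Hedgehog ligand that is not a member and stood in the Sertoli cell marker list, was present. It measured 2.74, 2.61 and 1.79 FPKM in Y and 6.43, 3.43 and 4.71 in M (log2 fold change 0.98, not called). The receptor PTCH1 was called on the member row, while its row ENSBGRG00000009781 without the annotation had a log2 fold change of -0.02. The signal transducer SMO had a log2 fold change of 0.64 (SE 0.24).

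M replicate 1 was the library least like the Y libraries. Its Pearson coefficients against them, over all tested genes, ran from 0.817 to 0.837. Those of M replicate 3 ran from 0.912 to 0.917 and those of M replicate 2 from 0.942 to 0.948. Among the Y libraries themselves the range was 0.952 to 0.958. Inside the M group, M replicate 3 had 0.923 against M replicate 1 and 0.935 against M replicate 2. The lowest M pair was M replicate 1 with M replicate 2, at 0.868. M replicate 2 was thus closer to each Y library than to any other M library. M replicate 1 held the highest M value for 14 of the 14 higher members, and M replicate 2 held the lowest for 13. Relative to the Y mean, the higher members had median differences of 1.80, 0.63 and 1.19 on the log2 scale in M replicates 1, 2 and 3, and all tested members had 0.66, 0.21 and 0.46. All tested genes had medians of 0.03, 0.02 and 0.09 in the same libraries. Without M replicate 1, 5 members were higher and 1 was lower past both thresholds, beside 1.82% and 1.37% of all genes. The 5 were FYN, NTN4, RGMA, SEMA6A and PTCH1, which were also called when any other single library was left out. The lower one was EFNA3, an ephrin that is under the filter when all libraries are used and that measured 0.885, 0.734 and 0.457 FPKM in Y and 0.242 and 0.231 in M replicates 2 and 3, and neither ROBO4 (-0.91) nor RRAS (-1.44) was called. The 14 higher members kept log2 fold changes between 0.73 and 1.40 without this library, with ROBO1 at 0.73. Without M replicate 1, the M libraries lay above all Y libraries for 28 members, beside 23.2% of all genes, and below them for 4, beside 15.3%. Without M replicate 2, 17 members were higher, 2 were lower and 20 had an adjusted p under 0.05 (limma), as did 2526 genes in all, and 7.38% of all genes were higher and 8.96% lower in this fit.

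**Figure D3:**
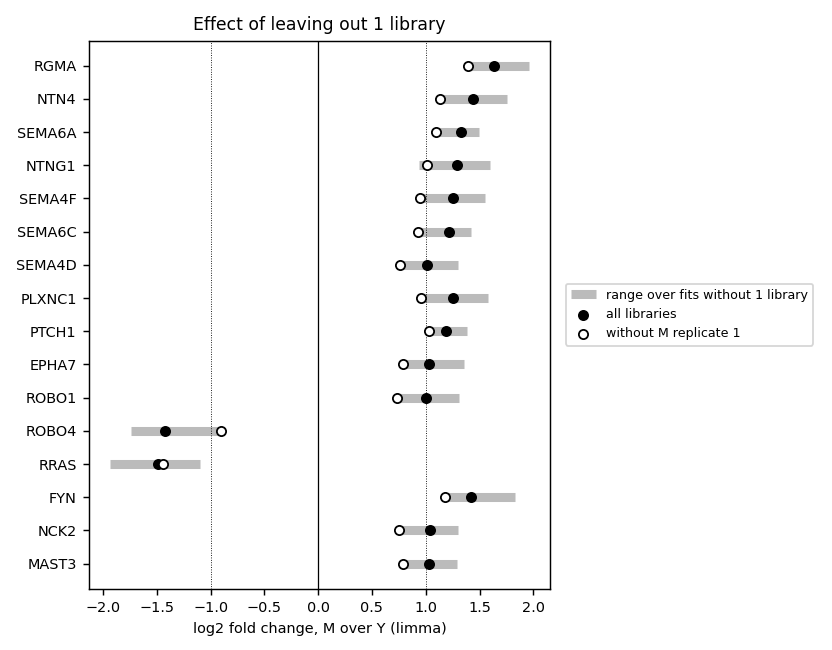
Log2 fold change, M over Y, of the 16 axon guidance genes past both thresholds with all libraries (filled points), without M replicate 1 (open points) and over the 6 fits that each leave out 1 library (grey bars). No gene changed sign, and 9 of the 14 higher genes lost their call without M replicate 1.

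Markers of testis cell types moved in the same libraries. The 9 tested Sertoli cell markers (Sertoli cells are the epithelial cells that carry the germ cells) summed to 98.6 to 115 FPKM in Y and to 292, 137 and 167 in M replicates 1, 2 and 3. Of these 9, 8 had a positive log2 fold change and 0 passed both thresholds. INHA held most of the sums, at 56.4 to 65.2 FPKM in Y and 211, 81.2 and 100 in M replicates 1, 2 and 3. The median difference of the 9 markers from the Y mean was 1.27, 0.35 and 0.70 in the same M libraries. The 11 peritubular and stromal cell markers summed to 32.7 to 37.6 FPKM in Y and to 81.3, 50.2 and 69.2 in M, and 3 were higher. The 3 T and NK cell markers in the table summed to 1.92 to 3.54 FPKM in Y and to 12.1, 4.97 and 7.23 in M, and 2 were higher. The order of the M libraries, replicate 1, then 3, then 2, was the same in these 3 sums as in the higher axon guidance genes. The sums of the spermatogonia (152, 98.7 and 87.8 FPKM), endothelial (22.8, 19.0 and 15.7 FPKM) and nerve markers (47.5, 31.9 and 25.4 FPKM) had this order too. UCHL1 was in both the spermatogonia and the nerve list, at 38.1, 19.2 and 16.9 FPKM in M replicates 1, 3 and 2. CLDN5 held 13.9, 6.58 and 6.52 FPKM of the endothelial sums. By the median difference from the Y mean, replicate 3 was highest for endothelial (0.25, 0.30 and 0.19) and nerve markers (-0.71, -0.23 and -0.95). The 8 round spermatid markers summed to 184 to 260 FPKM in Y and to 55.0, 196 and 88.6 in M, with 5 lower, and 5 of the 6 elongating spermatid markers were lower. Spermatocyte markers had a median log2 fold change of 0.05, with 0 of 8 called, and spermatogonia markers one of 0.40, with 1 of 7 higher. Macrophage markers had 2 of 7 higher and 2 lower, and Leydig cell markers 0 of 3 called. In these bulk libraries, fewer cells of a type and less RNA per cell cannot be told apart, and the part of cell composition in the axon guidance values was not tested.

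Nerve tissue markers were mostly low, and their sum overlapped between the groups, at 27.4 to 33.6 FPKM in Y and 25.4 to 47.5 in M. Without UCHL1, which also marks spermatogonia and was left out after seeing the data, the sum was 12.9 to 18.5 FPKM in Y and 8.52 to 12.7 in M, so that each M library was below each Y library. Of 9 nerve and Schwann cell markers in the table, 3 passed the filter and none was higher past both thresholds. The axonal neurofilament gene NEFM was at 0.0191 FPKM or less in each library.

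**Figure D4:**
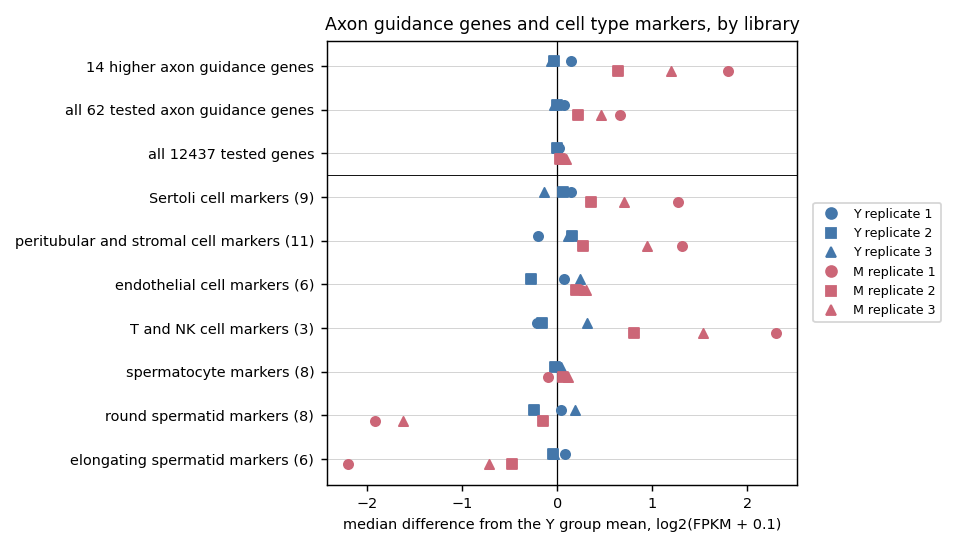
Median difference from the Y group mean on the log2(FPKM + 0.1) scale, by input library (blue: Y, red: M; symbols: replicates 1, 2 and 3), for axon guidance genes, all tested genes and cell type markers (number of tested markers in brackets). The 14 higher genes, the Sertoli, the peritubular and stromal and the T and NK cell markers are highest in M replicate 1 and lowest of the M libraries in M replicate 2, and the spermatid markers show the reverse.

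Differential m6A peaks stood on 10 members, 9 of them tested (14.5%, beside 9.29% of all tested genes). The deposited table of differential peaks gives the place of each peak but neither its direction nor a fold change or p, so it does not say at which age a transcript was more methylated. Of the 14 higher members, 5 carried a peak (35.7%), beside 15.8% of the 499 higher genes in all. Neither of the 2 lower member rows carried one, beside 3.83% of the 653 lower genes in all, so nothing is read from their lack of a peak. Both other tested RRAS rows carried a peak. The called genes with a peak were NTN4, NCK2, SEMA4D, SEMA4F and SEMA6C. The other 5 members with a peak were SEMA4C, a class 4 semaphorin; SMO, the Hedgehog signal transducer; the cofilin phosphatases SSH1 and SSH2, which act on actin turnover; and HRAS, a small GTPase under the filter.

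The 11 member peaks were short and mostly near the 3′ end. All were of at most 1000 bp, as were 69.0% of the 1438 differential peaks, with a median width of 200 bp beside 398 bp. In 7 of the 11 (63.6%) the centre lay in the last 10% of the gene, beside 32.8% of all differential peaks. SEMA4D had 2 peaks of 200 bp in the 3′UTR, on chromosome 7 at 25677500 to 25677699 and 25679693 to 25679892. SEMA4F and SEMA4C also had theirs in the 3′UTR, on chromosome 9 at 28331765 to 28331963 and 20282809 to 20283507. All 4 peaks annotated to a 3′UTR were thus on class 4 semaphorins. SEMA6C had its peak in exon 18 of 18, on chromosome 3 at 21556646 to 21556996, and SMO in exon 12 of 12, on chromosome 4 at 29305543 to 29305790. SSH1 had its peak in exon 15 of 15 (chromosome 16, 71198681 to 71198879) and SSH2 in exon 15 of 17 (chromosome 19, 48031770 to 48031969). The remaining peaks were away from the 3′ end: NTN4 in exon 2 of 10 (chromosome 5, 45680743 to 45680941), NCK2 in exon 3 of 4 (chromosome 9, 67812158 to 67812505) and HRAS in exon 1 of 3 (chromosome 29, 414960 to 415253). All positions are in LU_Bosgru_v3.0.

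ROBO1 had no differential peak. The peaks called within each age are held in 2 lists lettered M and Y, of which only the first rows were used here, and since the record and the article swap the letters, neither list was assigned to an age. Both lists held a ROBO1 peak of 6146 bp in exon 28 of 30, at 10771080 to 10777225. A second peak of 201 bp in exon 3, at 10382990 to 10383190, was in the part used here of the list lettered Y.

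**Figure D5:**
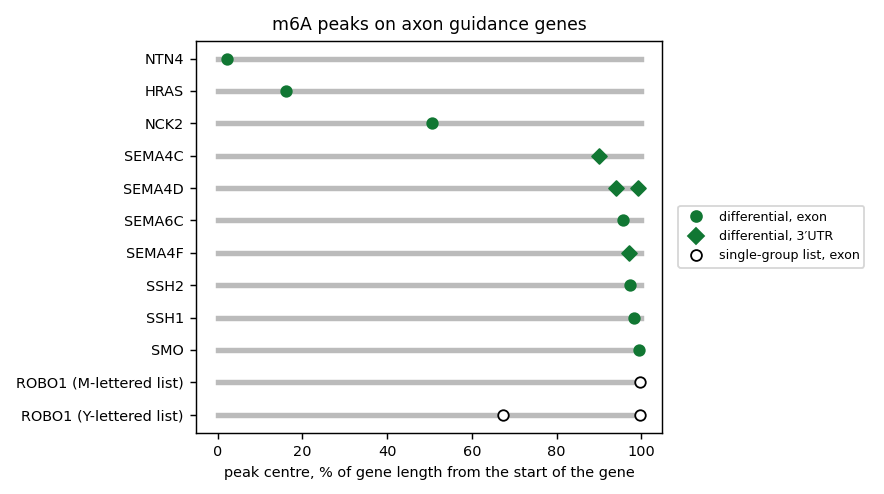
Centre of each m6A peak on axon guidance genes, as a percent of gene length from the start of the gene (filled green: the 11 differential peaks, diamonds in the 3′UTR and circles in exons; open circles: ROBO1 peaks in the lists lettered M and Y). 7 of the 11 differential peaks lie in the last 10% of the gene, and NTN4, HRAS and NCK2 have theirs further upstream.

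Guidance family rows that lack the pathway annotation were compared as a second set. Some of these rows carry the symbol of a member, such as RGMA, SEMA4C, SEMA6D and ROBO4, so the genes of the 2 sets overlap. Of 68 such rows (semaphorins, plexins, ephrins, Eph receptors, slits, netrin receptors and related genes), 31 were tested. Of these, 3 were higher (9.68%, beside 4.01% of all tested genes) and 0 lower (beside 5.25%) past both thresholds. None had an adjusted p under 0.05 (limma), 10 had an unadjusted p under 0.05 (32.3%, beside 25.1%) and the median log2 fold change was 0.17. SEMA3C, a secreted semaphorin, measured 0.287, 0.546 and 0.453 FPKM in Y and 3.26, 0.977 and 1.52 in M, a log2 fold change of 1.80 (SE 0.45). SRGAP1, a GTPase-activating protein that binds ROBO1, measured 1.55, 1.55 and 1.35 FPKM in Y and 4.86, 2.40 and 3.49 in M (1.16, SE 0.26). CHL1, a cell adhesion molecule of the L1 family, measured 0.969, 0.616 and 1.10 FPKM in Y and 1.79, 1.31 and 2.66 in M (1.00, SE 0.32). The groups did not overlap for these 3 genes, and without M replicate 1 SRGAP1 fell under the fold threshold at 0.92. The slits, the ligands of ROBO1, had log2 fold changes near 0. SLIT1 measured 12.1, 11.8 and 11.9 FPKM in Y and 11.9, 11.2 and 12.4 in M. The fold changes of SLIT1, SLIT2 and SLIT3 on the log2 scale were -0.01 (SE 0.13), -0.11 (SE 0.20) and -0.02 (SE 0.23), and all 3 overlapped between the groups. Differential peaks in this set stood on DPYSL3 and NEO1 (2 each), PLXNB2 and SEMA3D, genes that were not called.

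The pathway annotation and the gene symbols of the table limit how the members can be read. Of the 62 tested members, 34 also carried other pathways, with 6 higher and 1 lower, and 25 carried Axon guidance alone, with 7 higher and 1 lower. The pathway T cell receptor signaling shared 10 members, which were 10 of its 25 tested genes. Some symbols with the annotation, such as MAST3, SND1 and FAM174C, are not usually counted in this pathway, and the annotation was used as deposited. The symbols of 20 tested members stand on more than 1 row, and 16 other tested rows carry the symbol of a tested member, of which 0 were called. For 6 called members the other rows can be set beside the called one. The ROBO4 row ENSBGRG00000021903 had a log2 fold change of 0.87 and 2 other RRAS rows had 0.48 and 0.45, opposite in direction to the called rows. Other rows of PTCH1 had -0.02 and -0.16, those of RGMA 0.15 and 0.67, that of PLXNC1 0.48 and those of MAST3 from -0.18 to 0.30. Which row stands for the gene under each symbol was not tested.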

How the data were processed

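Testis RNA was measured in 6 input and 6 IP libraries. FPKM values were deposited by the authors for the input libraries, with 1 value per gene and library. The study's methods name Trimmomatic for trimming and SortMeRNA against rRNA; reads were aligned to LU_Bosgru_v3.0 with HISAT2 (2.0.4 in the submitters' processing notes) and only uniquely mapped ones were kept, which lowers values of near-identical copies. The program and strand setting behind FPKM are not given in the sources used here. The fragments behind a value are not in the table, so no interval or limit for 0 was computed; library sums ran from 116187 to 139921 FPKM. Peak positions and widths are as deposited by the authors, who called and compared peaks with MeTDiff (p of 0.05, fold change of 1.5) and annotated them with ChIPseeker; how replicates entered is not stated. The single-group peak lists were held in part.

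The ages were compared on log2(FPKM + 0.1) of the input libraries with lmFit and trended eBayes of limma 3.58.1 (R 4.3.3), for rows with a mean FPKM of at least 0.5, two-sided, with Benjamini-Hochberg adjustment over all rows tested. Called means an unadjusted p under 0.05 and a fold change over 2. No separate culture or litter is named; each library is from 1 yak. Exact permutation of 3 against 3 cannot go below p = 0.1 and was not used. The fit was tested on simulated data with known changes. Tables and plots were made in Python 3.11.15 with pandas 2.3.3, numpy 2.4.6 and matplotlib 3.10.9.

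The members, role and family lists, markers and tests were chosen with earlier results of these data known. Named by rule were the ROBO1 and ROBO2 rows, members past both thresholds or with a differential peak, the 5 members with the highest mean FPKM, those next to the filter, and family genes outside the annotation past both thresholds or with a peak. Replicate numbers did not pair the libraries: deviations of equal numbers correlated at -0.02, -0.09 and 0.01 across genes. Alternatives were other pseudocounts, filters, scalings, an eBayes fit without the trend, a fold threshold of 1.5, a replicate block, each library left out, and other ways to count peaks. Sequences of the members and IP values by gene were not analysed here. Authors' own comparisons of genes were not used. Single values of some marker genes are not reported here.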

Additional observations from a re-analysis of the deposited data

How the results depend on the processing

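None of the 16 called members changed sign under any alternative. The count of higher members was 9 with median-of-ratios scaling, 9 with quantile normalization, 3 with a pseudocount of 1 and 22 with a fold threshold of 1.5, beside 3.36%, 3.44%, 0.989% and 10.4% of all genes. The count of lower members was 1 with a filter of mean FPKM 1 and 0 with a pseudocount of 1, beside 5.29% and 3.04%. Higher family rows outside the annotation numbered 5 without the filter, 0 with a pseudocount of 1 and 9 at a fold of 1.5. Beside these stood 3.91%, 0.989% and 10.4% of all genes. The lower count of these rows was 1 with median-of-ratios scaling, quantile normalization, a pseudocount of 1 and a fold of 1.5. The shares of all genes were 5.77%, 5.11%, 3.04% and 9.23%. With each library left out in turn, higher members ran from 5 to 17 and lower members from 0 to 2. Higher family rows ran from 2 to 6 and lower ones from 0 to 2. Over all genes, 1.82% to 7.38% were higher and 1.37% to 8.96% lower in these fits. In the same fits the median log2 fold change of the members ran from 0.33 to 0.57 and that of ROBO1 from 0.73 to 1.31. Members with all M libraries above all Y libraries numbered 27 to 35, beside 22.2% to 33.4% of all genes. Those with all M libraries below numbered 4 to 7, beside 15.3% to 25.4%. These counts were added after seeing the data. Lower members numbered 1 without M replicate 1, 1 without Y replicate 1 and 0 without Y replicate 2, beside 1.37%, 3.08% and 4.44%. With the replicate block, 14 members were higher and 2 lower, and it changed no call of the 16. Peak counts were 9 or 10 under each alternative. The causes of these shifts were not tested. With 3 libraries per age, fold changes near 2 lie close to both thresholds, and the number of fragments behind low FPKM values is unknown.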
